A study of Mus musculus with 6 samples.

Results

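Bst2, Ifitm3, Oas1c, Isg20, Igtp and Ddx58 are genes that interferon induces, from families with products that act against viruses and other intracellular microbes. They were represented by 16 spots, that is 8 clones spotted in duplicate, of 31200 spots and 15600 clones on the array. These 6 genes, of 6788 genes with a named clone, were chosen from measured values of these same arrays: Bst2, Ifitm3 and Igtp were already known there for their positive means, and interferon-induced genes of like function were placed beside them. Their Z-ratios are therefore given as a description and were not tested. RNA came from Neuro-2a cells, a mouse neuroblastoma line, 60 h after transient transfection. Each of 6 two-colour cDNA arrays compared cells given GFP-tagged human TBP with a repeat length of 59 (59Q) with cells given the GFP vector pEGFPN3 (N3). Cy5 marked the 59Q sample on 4 arrays (replicates 1, 3, 4 and 6), and Cy3 marked it on 2 (replicates 2 and 5). Both samples of an array received 1 µg of plasmid and 3 µl of FuGENE 6 reagent. TBP with a shorter repeat was not on the arrays analysed here, so the expanded repeat and extra TBP cannot be told apart. Transfection reached only some of the cells, per the study's methods, and RNA was bulk, so a change in the share of responding cells and a change in RNA per cell cannot be told apart either.

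Interferons are secreted by cells that sense foreign nucleic acid. Their receptors activate transcription factors that bind promoter elements, among them the interferon-stimulated response element (ISRE) and the gamma-activated site (GAS). Bst2 (tetherin) holds budding virus particles at the cell surface, Ifitm3 hinders viruses from leaving endosomes, and Oas1c belongs to the oligoadenylate synthetase family, whose active members trigger RNA decay. Isg20 is an exonuclease that degrades RNA, Igtp is an immunity-related GTPase that acts on vacuoles holding parasites, and Ddx58 (RIG-I) is a cytosolic sensor of viral RNA. TBP, the transfected factor, binds TATA boxes and serves in transcription at promoters with and without them.

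The promoters are shown because 5 of the 6 genes held an ISRE core. The choice of genes did not use promoter letters, but it took interferon-induced genes. The windows lie around annotated start sites (RefSeq, build GRCm38.p6), mostly upstream, as drawn in the map of motif matches, and all 6 genes had at least 1. An ISRE core was searched as GAAA, any 2 bases and GAAA on both strands. It was found in 3.44% of all 32851 promoter windows. Of the lists described below, 9 of 20 relatives with a window held it, as did 17 of 46 other interferon effectors. The counts were 6 of 28 for interferon signalling, 4 of 17 for class I antigen presentation and 2 of 19 for nucleic acid sensing. The 6 genes are known interferon targets, so their share was not tested against the others. Stretches of 100 bases before the start site, or of 30 bases after it, follow in the direction of the gene. Capitals mark the ISRE core, on either strand, and for Isg20 the GAS core.
Bst2 (chr8:71537545-71537644, minus strand): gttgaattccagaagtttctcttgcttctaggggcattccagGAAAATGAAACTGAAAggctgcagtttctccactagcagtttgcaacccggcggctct
Oas1c (chr5:120812571-120812670, minus strand): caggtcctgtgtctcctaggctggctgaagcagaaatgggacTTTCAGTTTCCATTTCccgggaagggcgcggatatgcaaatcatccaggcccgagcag
Igtp (chr11:58199456-58199555, plus strand): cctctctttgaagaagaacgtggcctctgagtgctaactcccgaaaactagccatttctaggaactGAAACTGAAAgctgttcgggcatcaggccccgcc
Ifitm3 (chr7:141010715-141010744, minus strand): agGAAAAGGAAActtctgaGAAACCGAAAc
Ddx58 (chr4:40239796-40239825, minus strand): agTTTCGATTTCctatggccagccggctag
Isg20 (chr7:78913305-78913404, plus strand): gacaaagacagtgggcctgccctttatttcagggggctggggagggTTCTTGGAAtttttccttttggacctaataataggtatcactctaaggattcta

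Bst2 and Oas1c each carried a pair of overlapping ISRE cores. In Bst2 they began at bases -130 and -124 from the start site, and in Oas1c at -114 and -108 on the opposite strand. Igtp had 1 core, from base -34. The cores of Ifitm3 and Ddx58 lay just inside the transcript: Ifitm3 had cores from bases 3 and 20, and Ddx58 had 1 from base 3. None of the 3 windows of Isg20 held this core, which says only that these letters are not in these windows. A GAS core, searched as TTC, any 3 bases and GAA, was present in 8.30% of all windows and in those of Bst2, Ifitm3, Igtp and 1 window of Isg20. In Bst2 and Ifitm3 it overlapped an ISRE core. The letters TATAAA, searched on the gene's strand, occurred in 8.32% of windows and among these genes in that of Ddx58 alone, from base -153. A match is a run of letters and not a shown binding site.

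**Figure D1:**
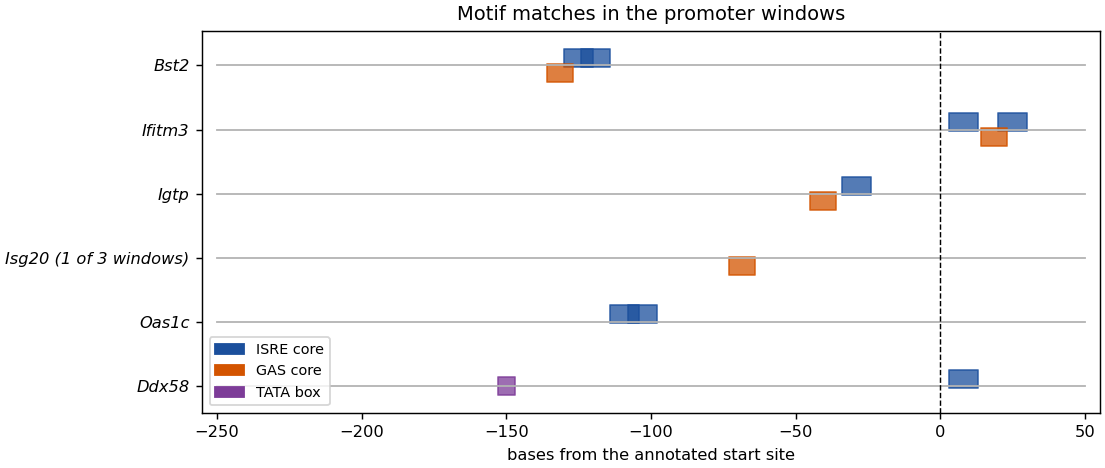
Matches to the ISRE core, the GAS core and TATAAA (coloured boxes) in the promoter window of each gene, with distance from the annotated start site in bases on the horizontal axis and the start site at the dashed line. Bst2, Oas1c and Igtp hold their ISRE cores before the start site, Ifitm3 and Ddx58 just after it, and the 1 window of 3 drawn for Isg20 holds a GAS core only.

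The deposited value is a Z-ratio, the difference between the standardised intensities of both samples scaled to an SD of 1 on each array, so it gives no fold change. The study names 59Q as treated and N3 as control, and a value above 0 was therefore taken as higher in 59Q. This direction is not settled. Clone values correlated at -0.498 to 0.00182 between arrays of opposite dye orientation and at 0.0504 to 0.341 between arrays of the same orientation. The second reading, Cy5 over Cy3, turns the sign of replicates 2 and 5, and both readings are given. A reading by channel order is possible too and was not run. It would turn replicate 1 against the other arrays, since 59Q was in channel 1 there and in channel 2 elsewhere. The clones of mouse Tbp, whose human counterpart was transfected, averaged 2.02 with 59Q in Cy3 and 1.01 with 59Q in Cy5, above 0 in both orientations as deposited. Their mean on replicates 3 and 4 was -0.0977 and 0.176. Whether they detect the human transcript was not tested. Arrays had 19966 to 31181 spots with a value, and replicate 3 had the fewest. The study calls a Z-ratio of at least 1.96 in size significant, and here that threshold was set against the values of single arrays. The arrays give ratios and not levels, so the neuroblastoma identity of the cells could not be checked against its markers.

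Bst2 lay above 0 on all 6 arrays, whichever dye carried the 59Q sample. Its Z-ratio was 1.82, 1.30, 1.03 and 1.72 on replicates 1, 3, 4 and 6, the arrays with 59Q in Cy5. On replicates 2 and 5, with 59Q in Cy3, it was 4.06 and 1.75. The mean was 1.95 ± 1.08 (SD, n = 6 arrays), and replicate 2 was the highest. Bst2 ranked high on each array, between the 93.5th and the 99.9th percentile of the clones measured there. Its duplicate spots had the same sign on 6 of 6 arrays and differed by at most 0.692. Of the 10156 clones measured on all arrays, 30 were above 0 on every one (0.295%). Bst2 was chosen for such values, so nothing is read from that share.

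Ifitm3 had a mean close to that of Bst2 but was not above 0 on every array. It stood at 2.55, 2.27, -0.278 and 0.574 on replicates 1, 3, 4 and 6 and at 4.23 and 2.20 on replicates 2 and 5. The mean was 1.92 ± 1.59 (SD, n = 6), and 4 of the 6 values reached 1.96. With 59Q in Cy5 the arrays divided into high values on replicates 1 and 3 and values near 0 on replicates 4 and 6. Its duplicate spots shared a sign on each of the 6 arrays, replicate 4 included, and differed by at most 0.591.

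Igtp was measured on 5 arrays, replicate 3 being without a value, and lay above 0 on each. Its Z-ratio was 1.04, 0.525 and 0.705 on replicates 1, 4 and 6 and 1.39 and 0.363 on replicates 2 and 5. The mean was 0.805 ± 0.413 (SD, n = 5). These values were smaller than those of Bst2 and none reached 1.96. On replicate 5 the duplicate spots of Igtp had opposite signs, 1.03 apart.

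Ddx58, the RNA sensor, changed sign from array to array. It was at 1.09, -0.498, 0.180 and -1.21 on replicates 1, 3, 4 and 6 and at 2.25 and 0.674 on replicates 2 and 5. The mean was 0.416 ± 1.22 (SD, n = 6). The arrays with 59Q in Cy3 lay above 0 and those with 59Q in Cy5 lay on both sides. Its duplicate spots agreed in sign on 6 of 6 arrays and differed by at most 0.356, so the spread between arrays was larger than that between spots.

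Isg20, the exonuclease, stayed near 0. It was at -0.603, -0.384, -0.172 and 0.776 on replicates 1, 3, 4 and 6 and at 0.471 and 0.514 on replicates 2 and 5. The mean was 0.100 ± 0.560 (SD, n = 6). It was above 0 on 3 arrays and below 0 on 3.

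Oas1c was read by 3 clones that did not agree. The clone at probe 3507 was below 0 on 5 of 6 arrays, with a mean of -0.655 ± 0.958 (SD, n = 6) and a lowest value of -2.09 on replicate 2. The clone at probe 24335 was above 0 on 3 of 6 arrays, with a mean of 0.225 ± 0.927 (SD, n = 6), and stood at 1.69 on replicate 2. The clone at probe 15177, measured on 4 arrays, had 1.5, 0.898, -1.09 and 9.19 on replicates 1, 2, 5 and 6. The value of 9.19 rests on a single spot, since its duplicate had no value. As the mean of its clones Oas1c was at 0.344 ± 1.44 (SD, n = 6). With values that rest on 1 of 2 spots left out, an alternative chosen after seeing the data, the mean was -0.242, so the sign for Oas1c rests on that spot. The mouse genome holds several closely related Oas1 genes, and whether the clones also detect these was not tested.

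**Figure D2:**
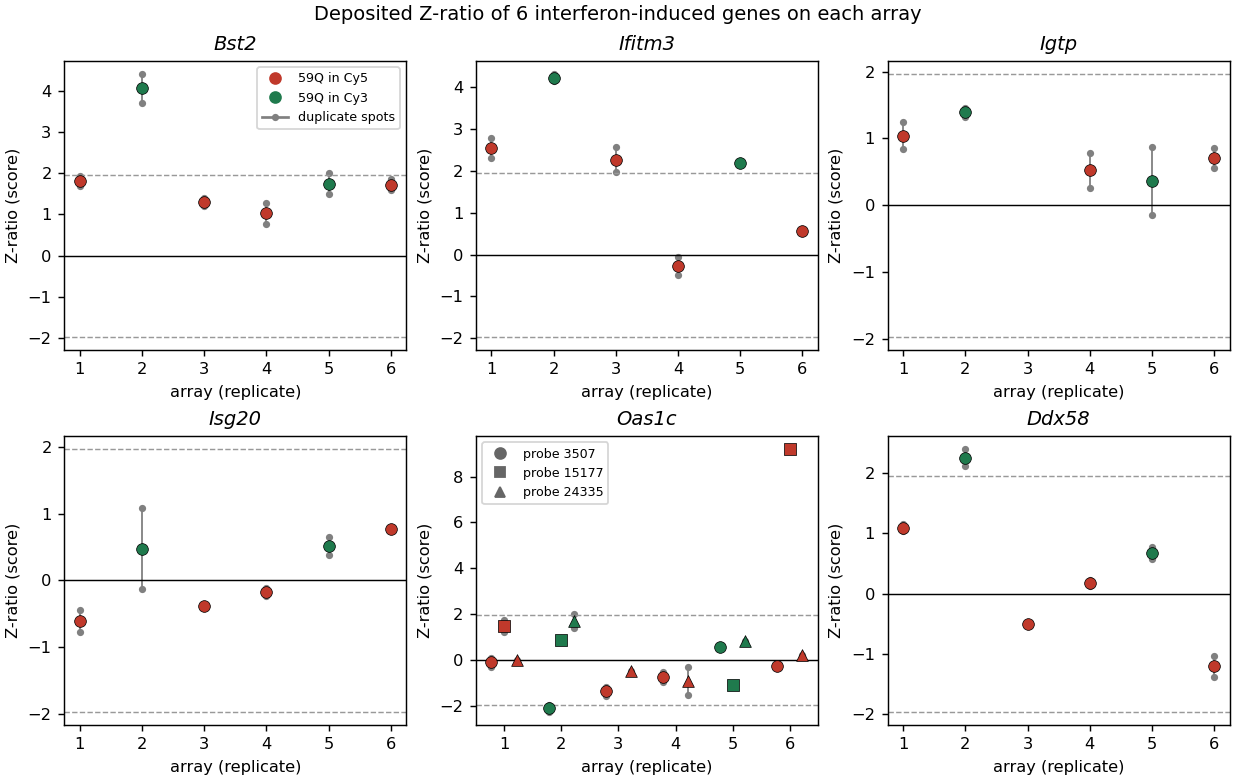
Deposited Z-ratio (score, vertical axes, which differ between panels) of the 6 genes on each of 6 arrays (horizontal axes). Large symbols are clones, coloured by the dye of the 59Q sample, grey points joined by a line are their duplicate spots, and dashed lines lie 1.96 above and below 0. Bst2 and Igtp are above 0 wherever they were measured, Ifitm3 dips to -0.278 on replicate 4, and a single spot of Oas1c reaches 9.19 on replicate 6.

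On single arrays, 3 of 29 clone values of these genes with 59Q in Cy5 and 4 of 16 with 59Q in Cy3 were at least 1.96. Over all clones 2.18% and 1.2% of values were that high, and since the genes were chosen on these values nothing is read from the difference. The 7 values belonged to Ifitm3 (4), Bst2, Ddx58 and Oas1c (1 each). At the other end, 1 value lay 1.96 or more below 0, that of the Oas1c clone at probe 3507 on replicate 2. The genes above 0 numbered 5, 6, 2, 3, 6 and 5 on replicates 1 to 6, out of 6 measured, or 5 on replicate 3. Replicates 2 and 5, with 59Q in Cy3, were thus the arrays on which every one of the 6 genes lay above 0. For Oas1c this holds for the mean of its clones only, with probe 3507 at -2.09 on replicate 2 and probe 15177 at -1.09 on replicate 5. The median over all spots was also above 0 on these arrays alone, at 0.0898 and 0.137, against -0.125 to -0.0126 elsewhere. The share of all genes above 0 on each array was not counted, so nothing is read from these counts.

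Both dye orientations gave a positive mean for Bst2, Ifitm3 and Igtp. Bst2 averaged 1.47 with 59Q in Cy5 and 2.90 with 59Q in Cy3, Ifitm3 averaged 1.28 and 3.21, and Igtp averaged 0.758 and 0.876. Of 14418 clones on at least 4 arrays, 2455 had both means above 0 (17.0%) and 17 had both above 1 (0.118%). As deposited, and by the lower of the 2 means, Bst2 ranked 3, Ifitm3 5 and Igtp 43 of these clones, whereas the clones of Isg20, Ddx58 and Oas1c had at least 1 mean below 0. These ranks use the values on which the genes were chosen and hold for the deposited direction only, since under the Cy5 over Cy3 reading the mean with 59Q in Cy3 turns negative for all 3. For Ddx58 the means were -0.109 and 1.46, and for Isg20 -0.0957 and 0.493. The difference between orientations was not tested, as only 2 arrays had 59Q in Cy3.

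**Figure D3:**
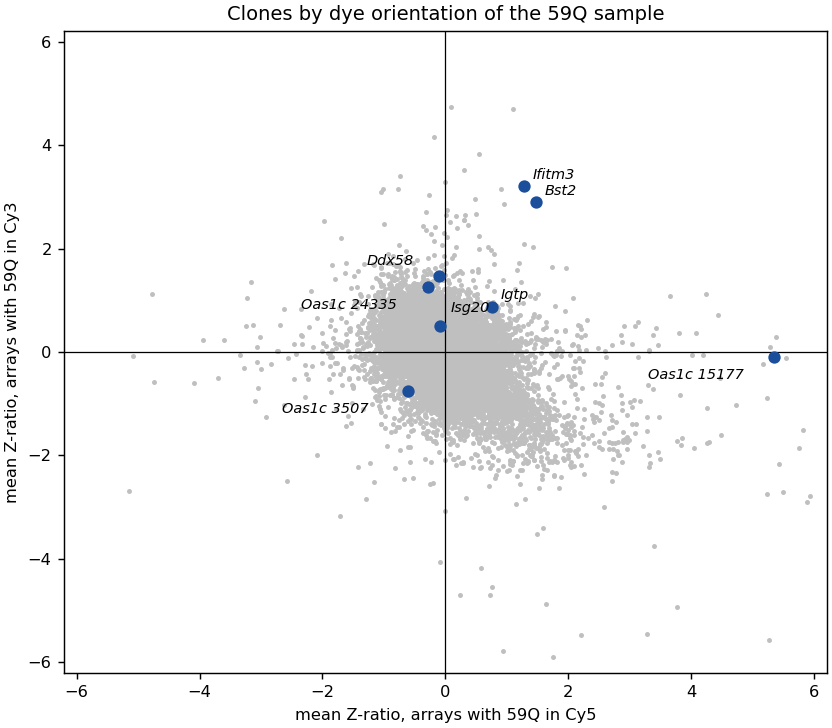
Mean Z-ratio of each clone over the arrays with 59Q in Cy5 (horizontal axis) and over those with 59Q in Cy3 (vertical axis), in score units, for clones on at least 4 arrays (grey) and for the clones of the 6 genes (blue, the Oas1c clones with their probe number). Axes end at 6.2, which leaves 6 clones out of view. Bst2 and Ifitm3 lie at the upper right edge of the cloud, positive in both orientations, while 1 Oas1c clone lies far to the right on the value of a single spot.

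Read as Cy5 over Cy3, the values of Bst2, Ifitm3 and Igtp nearly cancelled, those of Ddx58 and Isg20 had a negative mean, and that of Oas1c changed little. The mean became 0.00955 ± 2.39 for Bst2, -0.219 ± 2.63 for Ifitm3 and 0.254 ± 1.46 for Oas1c (SD, n = 6 arrays). It became -0.228 ± 0.513 for Isg20, -0.561 ± 1.15 for Ddx58 (n = 6) and 0.104 ± 0.983 for Igtp (n = 5). Each of these means was smaller than its SD. Replicates 3, 4 and 6 have the same dye and channel order, and on them alone the means were 1.35 for Bst2, 0.854 for Ifitm3, 0.615 for Igtp, 0.0735 for Isg20, 0.441 for Oas1c and -0.509 for Ddx58.

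Likeness of pattern was measured as the cosine of 2 series of Z-ratios, which is 1 for proportional series and does not depend on the reading. It is not centred, so series that stay on 1 side of 0 score high even where they do not rise and fall together. It was 0.967 for Bst2 and Igtp over 5 arrays and 0.930 for Bst2 and Ifitm3 over 6 arrays. Ddx58 had 0.628 with Bst2, Isg20 had 0.349 and Oas1c had 0.278. The Oas1c clones had -0.319 to 0.142 with each other. All points share the same 6 arrays, and the values that chose the genes enter these cosines, so they say nothing of covariation.

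Among 6176 named clones of other genes on all 6 arrays, those most like Bst2 were Cd9, a tetraspanin (cosine 0.953), Crybg3 (0.935), Tap2, a transporter that carries peptides to class I molecules (0.932), Ifitm3 (0.930) and Myadm (0.911). Apart from Ifitm3, their means lay below that of Bst2, at 0.511 for Cd9, 0.129 for Crybg3, 0.510 for Tap2 and 0.594 for Myadm, each over 6 arrays. With the mean of the 6 genes, the clones most alike were Cd9 (0.966), Crybg3 (0.940), Lss, the lanosterol synthase of sterol synthesis (0.931), Man2a2 (0.916) and Ammecr1l (0.909), among 6171 clones. The mean of the 6 genes was lowest on replicate 4, at 0.0786, and highest on replicate 2, at 2.09.

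The wider interferon system was read through 5 lists that leave these genes out, and their genes were tested with limma on the mean of each gene's clones over all 6463 genes on at least 4 arrays. Of 44 genes tested, none (0) had an adjusted p under 0.05, and 3 had an unadjusted p under 0.05. Over all genes 0 of 6463 passed (0%), and 169 had an unadjusted p under 0.05, where 323 would be expected by chance. Over single clones 0 of 14418 passed (0%), and 295 had such a p, where 721 would be expected. The test thus gave fewer small p-values than chance would, so the absence of calls does not show an absence of change. Read as Cy5 over Cy3, 18 genes (0.279%) and 279 clones (1.94%) passed. None (0) of the 44 interferon genes was among those 18, and 9 had an unadjusted p under 0.05. In that reading 1282 of all 6463 genes had an unadjusted p under 0.05. As deposited, 20 of the 44 genes had a mean above 0 (45.5%), with a median of -0.00659, beside 43.1% and a median of -0.0449 over all genes tested. Read as Cy5 over Cy3, 25.0% lay above 0, with a median of -0.256, beside 34.6% and -0.160 over all genes.

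Of 27 relatives of the 6 genes, 6 had a clone and 5 were tested, of which 3 had a mean above 0 and 0 passed. In the Cy5 over Cy3 reading 1 of the 5 lay above 0. The synthetase genes Oas1d and Oas1e had means of 0.248 ± 0.745 (SD, n = 5) and 0.25 ± 0.564 (SD, n = 6). Tgtp1, a GTPase related to Igtp, was at -0.0957 ± 0.850, and Isg20l2 and Aen, exonucleases related to Isg20, were at -0.134 ± 0.652 and 0.0253 ± 0.672 (SD, n = 6 each). Ifitm2, the nearest relative of Ifitm3 on the array, had values on 3 arrays only, 1.72, -1.52 and 0.903 on replicates 1, 2 and 5, and was not tested. Whether the clones of these relatives and those of the 6 genes detect each other's transcripts was not tested.

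Of 60 other interferon effectors, 12 had a clone and were tested. Of these 3 had a mean above 0, 9 lay below and 0 passed, with a median of -0.125. With the sign of replicates 2 and 5 turned, 4 lay above 0, with a median of -0.308. Ifi30, a thiol reductase of lysosomes, was at 0.431, Sp100, a nuclear body protein, at 0.292 and Parp12 at 0.116. Trex1, a DNA exonuclease, was at -0.265, Trafd1 at -0.295, Phf11d at -0.300, Trim21, an antibody receptor in the cytosol, at -0.171 and Znfx1 at -0.162. All adjusted p-values from limma were 0.999.

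Genes of class I antigen presentation, which interferon also induces, had 5 means above 0 of 7 tested, a median of 0.246 and 0 that passed. In the other reading 3 of the 7 lay above 0 and the median was -0.164. B2m, the light chain of class I molecules, was at -0.776, 1.60, -0.106 and 2.03 where Cy5 carried 59Q and at 3.02 and 1.04 where Cy3 did. Its mean was 1.13 ± 1.40 (SD, n = 6; limma unadjusted p = 0.0250, adjusted p = 0.999). Tap2 was above 0 on 6 of 6 arrays, between 0.315 and 0.673, with a mean of 0.510 ± 0.144 (SD, n = 6; limma unadjusted p = 0.0306, adjusted p = 0.999). B2m had its highest value on replicate 2, as did Bst2, Ifitm3, Igtp and Ddx58, but on replicate 1 it lay below 0 and they lay above. How many clones were highest on replicate 2 was not counted. Tapbp, which helps to load peptides, was at 0.464 and Calr, a chaperone of the endoplasmic reticulum, at -0.599. Read as Cy5 over Cy3, B2m was at -0.218 and Tap2 at 0.0764.

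Signalling and sensing genes gave no call. Of 13 interferon signalling genes 8 had a mean above 0 and 0 passed, with a median of 0.109. The Cy5 over Cy3 reading put 2 of the 13 above 0, with a median of -0.254 and 4 at an unadjusted p under 0.05. Over all 6463 genes 1282 had such a p in that reading. Stat3 was below 0 on 6 of 6 arrays, at -0.484 ± 0.290 (SD, n = 6; limma unadjusted p = 0.0476, adjusted p = 0.999). Irf9, a transcription factor that binds the ISRE, was at 0.293, Irf8 at 0.361 and the kinase Jak2 at -0.325. Of 7 genes that sense foreign nucleic acid or relay its signal, 1 had a mean above 0 and 0 passed, with a median of -0.278, and 1 of the 7 lay above 0 in the other reading too, with a median of -0.288. As deposited this gene was Tank, at 0.817 over 4 arrays. The adaptors Ticam1 and Myd88 were below 0 on every array that measured them, at -0.373 (n = 6) and -0.544 (n = 5), and Irf3 was at -0.375. All of these had a limma adjusted p of 0.999.

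Markers of cell types gave no call either. Of 5 neuroblast genes 3 had a mean above 0, with Th at 0.363 and Tubb3 at 0.568. Of 9 markers of other cell types 3 lay above 0 and 6 below, with Mbp, a myelin gene, at -0.623 (limma unadjusted p = 0.0346, adjusted p = 0.999) and Krt18 at -0.390. With replicates 2 and 5 turned, 1 of the 5 neuroblast genes and 0 of the 9 others lay above 0, and Tubb3 was at 1.28 (limma unadjusted p = 0.000476, adjusted p = 0.0666). The part of these markers in the values of Bst2 and Ifitm3 was not tested.

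**Figure D4:**
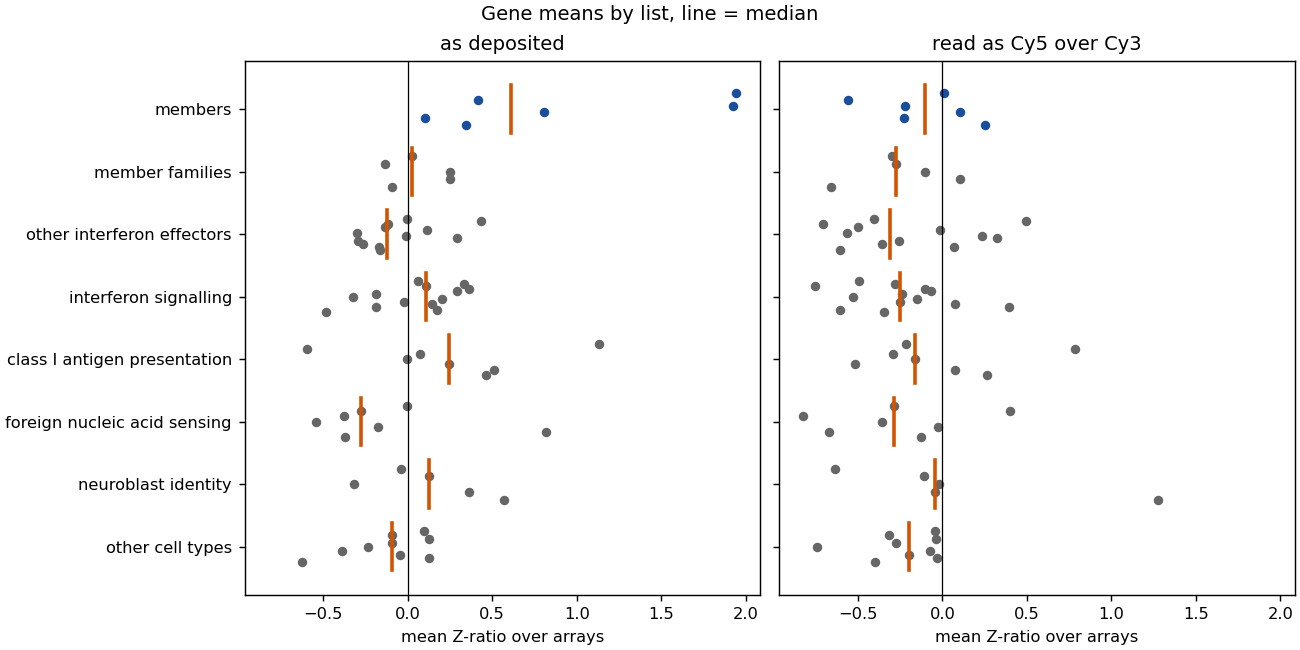
Mean Z-ratio over arrays (horizontal axes, score) of each tested gene by list, as deposited (left) and read as Cy5 over Cy3 (right); orange lines are list medians and the 6 genes described here are blue. As deposited, Bst2 and Ifitm3 stand to the right of every gene of the other lists, and read as Cy5 over Cy3 all 6 genes lie between -0.561 and 0.254. Bst2 and Ifitm3 were chosen with their positive means on these arrays known, so nothing is read from their position.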

How the data were processed

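Total RNA of 59Q and N3 transfected Neuro-2a cells was labelled by the authors with a tyramide signal amplification kit, hybridised in pairs onto 6 mouse cDNA arrays, scanned on an Axon scanner, read with GenePix Pro and normalised by Z score transformation. Versions of those tools were not given in the sources used. The values deposited by the authors are Z-ratios per spot, a score whose mean is 0 and SD 1 on every array, without intensities. Neighbouring spots (odd and next even probe number) were averaged into 15600 clones and clones into genes. Probe annotation named 18384 spots with 1 gene, 514 with several and 12302 with none in the table used, and 18172 of the named spots matched the RefSeq gene table of GRCm38.p6 by Entrez ID. Features with a value on 4 or more of the 6 arrays entered limma 3.58.1 under R 4.3.3 (intercept, eBayes, Benjamini-Hochberg) over the whole table. The 6 arrays were taken as replicates, as in the methods, while the series text counts 4 biological replicates and 2 flip-dye pairs without naming the arrays of a pair, so p-values may in part measure technical spread. The test was checked on simulated data with independent noise on each array, so the check does not cover the correlations between arrays given above. Duplicate spots correlated at 0.730 to 0.889.

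The 6 genes and the lists were chosen with earlier results of these data known. The genes named are these 6, all measured relatives, the 8 other effectors, 4 genes of each further interferon list and 2 of each marker list with the smallest p, and the 5 clones most like Bst2 or the mean of the 6 genes. Lists are described by counts and medians only. Motifs were searched in RefSeq promoter windows. Alternatives covered direction, dye term, arrays used, flip-dye pairing, centring, quantile normalization, missing values, spots, clipping at 5, variance model, clone choice, motif length and leaving out each replicate. Precision is limited by how many arrays there are.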

Additional observations from a re-analysis of the deposited data

Results flagged for a closer look

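Among 38 series of values examined (8 clones of the 6 genes and 30 genes named from the lists), 3 had 1 sign on all 4 arrays with 59Q in Cy5 and the opposite sign on both arrays with 59Q in Cy3. Tgtp1 averaged -0.566 and 0.845, a difference of -1.41. Phf11d averaged -0.650 and 0.398, a difference of -1.05. Tubb3 averaged 1.38 and -1.06, a difference of 2.45. These differences were not tested. How many of all clones show such a pattern was not counted, so nothing is read from the 3. None of the 8 clones of the 6 genes showed it, but Bst2, Ifitm3 and Igtp were chosen for positive means. Igtp and the Oas1c clone at probe 15177 lacked a value on some of the 4 arrays, so they could not show it. In the 30 series with a value on all 4 arrays of the Cy5 orientation, a gap rule that flags about 5% by chance found no array that stood apart.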

How the results depend on the processing

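The call of 0 clones became 272 higher and 7 lower when read as Cy5 over Cy3, 4 higher on replicates 3, 4 and 6 alone, and 1 lower in 1 of 12 flip-dye pairings. It was 0 in each direction in all other alternatives, leaving out each replicate included (0 to 0). Interferon genes called were 0 under every alternative run. The means of Bst2, Ifitm3 and Igtp moved by more than 1 SD in 1 alternative each, the Cy5 over Cy3 reading, and those of the other 3 genes in 0 alternatives, where the SDs are wide. Leaving out 1 replicate gave 1.52 to 2.13 for Bst2, 1.46 to 2.36 for Ifitm3, 0.659 to 0.916 for Igtp, 0.0478 to 0.741 for Ddx58, -0.0347 to 0.241 for Isg20 and -0.198 to 0.595 for Oas1c. The lowest for Bst2, Ifitm3, Igtp and Ddx58 came without replicate 2, and the lowest for Oas1c and Isg20 without replicate 6. Oas1c was also below 0 with its first clone alone, at probe 3507 (-0.655). The clone at probe 24335, measured on as many arrays, had a mean of 0.225. With values of 1 spot left out, an alternative chosen after seeing the data, Oas1c was at -0.242. Igtp has no value on replicate 3 and so none when all arrays are required. Longer or shorter ISRE letters left the count at 5 genes, but these alternatives could hardly lower it. The longer letters only add 2 free bases to the core, and the shorter letters lie within it. No paired analysis was possible because each replicate number names 1 array only, whose ratio already holds both samples, and which arrays form the flip-dye pairs is not known, so all 12 pairings were run. The causes were not tested.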

Other observations

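A promoter window was at hand for 5224 of the 6463 genes tested (80.8%). Leaving out the 6 genes described above, 185 genes held an ISRE core and 5033 did not. As deposited, 48.1% of the first and 42.3% of the second had a mean Z-ratio above 0, with medians of -0.0127 and -0.0472, and 3 and 118 had an unadjusted limma p under 0.05 (1.62% and 2.34%). Read as Cy5 over Cy3 the shares above 0 were 36.8% and 34.04%. The 6 genes of the interferon lists that were tested and held the core were Tgtp1, Trim21, Stat2, B2m, Psme1 and Myd88, with means from -0.544 for Myd88 to 1.13 for B2m. Genes with TATAAA in the window numbered 290, of which 39.7% had a mean above 0, against 42.7% of the 4928 without it. Read as Cy5 over Cy3 the order turned, with 37.9% and 33.9% above 0. These shares are descriptions and were not tested.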
